A study of Mus musculus with 23 samples.

Results

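*Hes6*, *Dll1*, *Dll3*, *Insm1*, *Neurod1*, *Chgb* and *Lmo3*, 7 genes taken from the proneural and neuroendocrine programs that Notch lateral inhibition restrains, were followed through 23 RNA libraries of fetal mouse thymic epithelial cells (TECs). They are 7 of the 50123 genes in the count table, and they were picked by symbol because *Hes6* and *Dll1* were lower in TECs carrying an activated Notch transgene than in control cells. The levels of all 7 genes in that contrast are therefore given as a description with no test. Tests were run only between groups of libraries that the choice had not used.

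Each library held RNA from 100 cells sorted from thymus, amplified by Smart-seq2, a full-length cDNA method without molecular identifiers. PLET1 marks founder cells of the thymic epithelium, and cells were sorted as PLET1+ at E12.5 and as PLET1+ or PLET1- at E14.5. Controls, labelled wild type, were littermates of *Rbpj* conditional knockouts (cKO, labelled Foxn1Cre RbpjFL/FL), in which Cre recombinase driven by *Foxn1* removes RBPJ, the DNA-binding partner of cleaved Notch, once TECs switch *Foxn1* on, and there were 3 libraries of each genotype for each of the 3 sorts. The 5 NICD libraries (labelled Foxn1Cre Rosa26FL-STOP-FL-NICD-IRES-EGFP) were E14.5 PLET1+ cells from 5 embryos of the same litter, in which the Notch intracellular domain is made in *Foxn1*-expressing cells, and they were collected in another laboratory from the *Rbpj* cross. All animals are labelled C57BL/6. Each stage of the *Rbpj* cross came from 2 litters on separate days, and in the labels replicates 1 and 2 of each sort share a batch and replicate 3 has another. Stage and the NICD transgene each coincide with a change of batch, and their part cannot be told apart from that of the batch. Because the data are bulk, fewer cells of a type and less RNA per cell cannot be told apart either.

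In Notch lateral inhibition a cell that displays Delta ligands activates Notch receptors on its neighbors. Cleaved Notch joins RBPJ and switches on *Hes* repressors, which in turn shut off proneural factors of the basic helix-loop-helix (bHLH) family and the Delta ligands that those factors induce. Cells that escape this repression in neural, endocrine and lung epithelia turn on *Hes6*, *Insm1* and *Neurod1* and later the proteins of secretory granules. In the fetal thymus the best-known Delta ligand is *Dll4*, which the cortical TECs (cTECs) that depend on *Foxn1* present to incoming T-cell progenitors.

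The label of the set was borne out for few of its members. *Hes6* had more than 3 counts in all 23 libraries, *Lmo3* in 18, *Dll1* in 12, *Dll3* and *Insm1* in 4 each and *Neurod1* in 1, and *Chgb* had no count in any library. *Neurod1* and *Chgb* did not pass the filter on low counts, so 5 of the 7 genes entered the fits across 19140 genes. Of a list of 23 neuroendocrine genes, 10 reached a mean of 1 CPM (read counts relative to the library total, scaled by TMM factors) over the libraries, and *Chgb* and *Pcsk1n* were at 0 throughout. Of 13 proneural bHLH genes, 5 reached that mean, the 3 above 10 CPM were the broadly expressed partner genes *Tcf3*, *Tcf4* and *Tcf12*, and *Neurog3* and *Neurod6* were at 0. Since *Chgb* had no read and *Insm1* and *Neurod1* had few, the genes are called by their names here and not by a cell type. The sorted cells of every group carried all 8 TEC markers examined, at a summed level of 2694 to 12279 CPM per library. *Plet1*, one of the 8, had no count in replicate 1 of the PLET1- controls and of the PLET1- cKO.

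**Figure D1:**
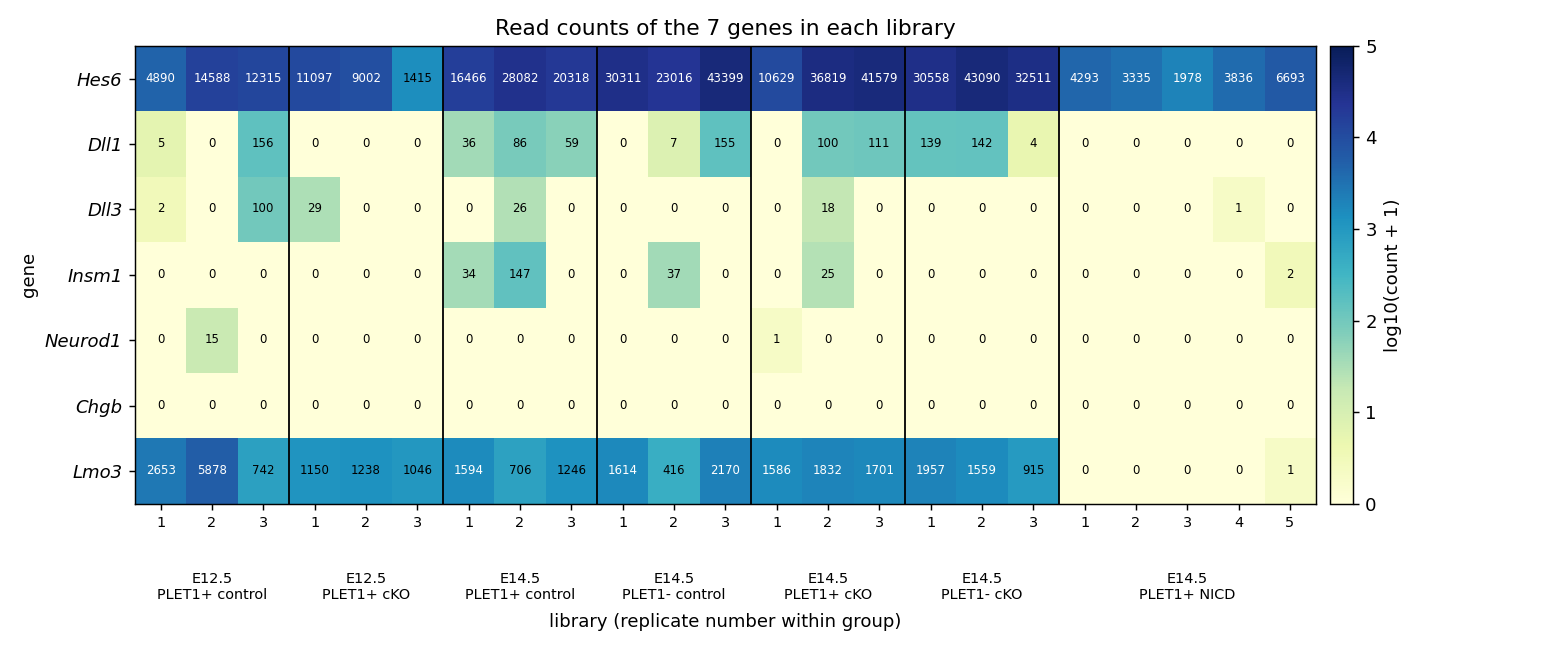
Read counts of the 7 genes (rows) in each of the 23 libraries (columns, by group and replicate number), with the count printed in each cell and shaded on a log10(count + 1) scale. *Hes6* is filled in every column, *Lmo3* is filled in 18 columns and holds 1 count over the 5 NICD libraries, the *Dll1* row passes 3 counts in 12 columns and each of the remaining rows in 4 or fewer.

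The sequences just upstream of *Hes6*, *Dll1* and *Lmo3*, the 3 members with reads in most control libraries and less signal in NICD cells, are shown because RBPJ and HES proteins act on such regions in lateral inhibition. Windows of 250 bases before each RefSeq start were searched on both strands for TGGGAA (the core of the RBPJ site), CACNAG (the N-box) and CACGNG (the class C site), the last 2 of which HES proteins can bind and which overlap where CACGAG occurs. Matches are in capitals, and all windows lie on the minus strand of GRCm38.p6. *Hes6* and *Dll1* each have 2 annotated starts, and *Lmo3* has 1.

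Hes6 upper start, chr1:91414039-91414288: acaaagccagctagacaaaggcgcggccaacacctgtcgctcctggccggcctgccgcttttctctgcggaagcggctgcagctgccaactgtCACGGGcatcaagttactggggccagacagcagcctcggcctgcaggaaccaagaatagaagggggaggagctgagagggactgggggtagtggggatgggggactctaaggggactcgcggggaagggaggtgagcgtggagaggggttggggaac

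Hes6 lower start, chr1:91413223-91413472: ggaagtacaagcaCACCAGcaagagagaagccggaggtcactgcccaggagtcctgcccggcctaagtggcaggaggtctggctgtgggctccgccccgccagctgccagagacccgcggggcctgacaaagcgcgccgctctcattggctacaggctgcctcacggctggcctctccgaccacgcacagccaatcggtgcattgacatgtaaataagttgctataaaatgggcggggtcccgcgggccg

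Dll1 upper start, chr17:15376933-15377182: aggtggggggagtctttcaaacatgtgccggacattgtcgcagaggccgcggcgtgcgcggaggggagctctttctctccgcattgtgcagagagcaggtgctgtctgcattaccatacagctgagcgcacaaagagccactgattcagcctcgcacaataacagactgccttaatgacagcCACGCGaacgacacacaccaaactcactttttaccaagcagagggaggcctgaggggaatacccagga

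Dll1 lower start, chr17:15375824-15376073: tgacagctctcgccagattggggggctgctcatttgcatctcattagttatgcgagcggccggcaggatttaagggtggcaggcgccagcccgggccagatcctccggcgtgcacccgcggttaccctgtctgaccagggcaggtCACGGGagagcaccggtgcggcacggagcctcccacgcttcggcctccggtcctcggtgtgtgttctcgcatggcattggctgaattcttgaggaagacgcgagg

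Lmo3, chr6:138581969-138582218: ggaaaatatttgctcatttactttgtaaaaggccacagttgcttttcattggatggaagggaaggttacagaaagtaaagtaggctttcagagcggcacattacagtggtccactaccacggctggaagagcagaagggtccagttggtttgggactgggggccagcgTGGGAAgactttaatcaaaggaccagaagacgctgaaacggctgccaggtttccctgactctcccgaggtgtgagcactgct

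The upper *Hes6* window held CACGGG 157 to 152 bases before the start, and the lower one held CACCAG 237 to 232 bases before it. In *Dll1*, CACGCG lay 68 to 63 bases before the upper start and CACGGG 105 to 100 bases before the lower one. The *Lmo3* window held TGGGAA 82 to 77 bases before its start. These letters are common: among 32851 RefSeq windows of this length, 21.6% held TGGGAA, 36.7% held CACNAG and 23.5% held CACGNG. An E-box CAGCTG, the kind that proneural bHLH dimers bind, occurred in both *Hes6* windows and in the upper *Dll1* window, against 13.0% of all windows. Of the other members, *Neurod1* and *Chgb* each had a window with a class C site, and the *Dll3* window held an E-box CAGCTG. These motifs were therefore not particular to the 3 genes shown. *Insm1* had no window in the reference.

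*Hes6* (ENSMUSG00000067071.8, chr1:91411483-91414038, minus strand, GRCm38) encodes a bHLH protein of the HES family that opposes HES1 and promotes differentiation in neural tissue. It was by far the most abundant of the 7 genes. In E14.5 PLET1+ controls its level per kilobase of exon was 293 ± 33.7 CPM per kb (SD, n = 3), whereas *Lmo3* was at 6.52 ± 4.45 and *Dll1* at 0.338 ± 0.0303 CPM per kb. At E12.5 *Hes6* measured 203, 239 and 229 CPM in control replicates 1 to 3, and 377, 412 and 80.0 CPM in the cKO. At E14.5 the PLET1+ controls had 599, 510 and 482 CPM and the PLET1- controls 774, 776 and 825 CPM. The PLET1+ cKO libraries had 324, 905 and 986 CPM, and the PLET1- cKO libraries 643, 1018 and 1161 CPM. The NICD libraries had 63.6, 50.9, 27.3, 52.4 and 84.4 CPM. Control libraries lay close together at each stage and sort, and in each of the cKO groups 1 library fell well under the other 2.

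Ordered by mean, *Hes6* stood at 941 ± 267 CPM in PLET1- cKO, 792 ± 28.9 in PLET1- control, 738 ± 361 in PLET1+ cKO and 530 ± 60.9 in PLET1+ control cells at E14.5, then at 290 ± 182 in cKO and 224 ± 18.1 in control cells at E12.5, and last at 55.7 ± 20.8 in NICD cells (SD, n = 3 or 5). The ranges of the first 4 groups overlapped from each group to the next, as did those of the 2 groups of E12.5. The lowest E14.5 PLET1+ control library lay above the highest E12.5 library, and the highest NICD library lay below every E12.5 control library. Of all genes tested, 11.5% were higher without overlap in E14.5 PLET1+ controls than in E12.5 controls. Between NICD and E12.5 controls, 4.91% were lower without overlap. The E12.5 cKO replicate 3, at 80.0 CPM, fell within the NICD range.

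**Figure D2:**
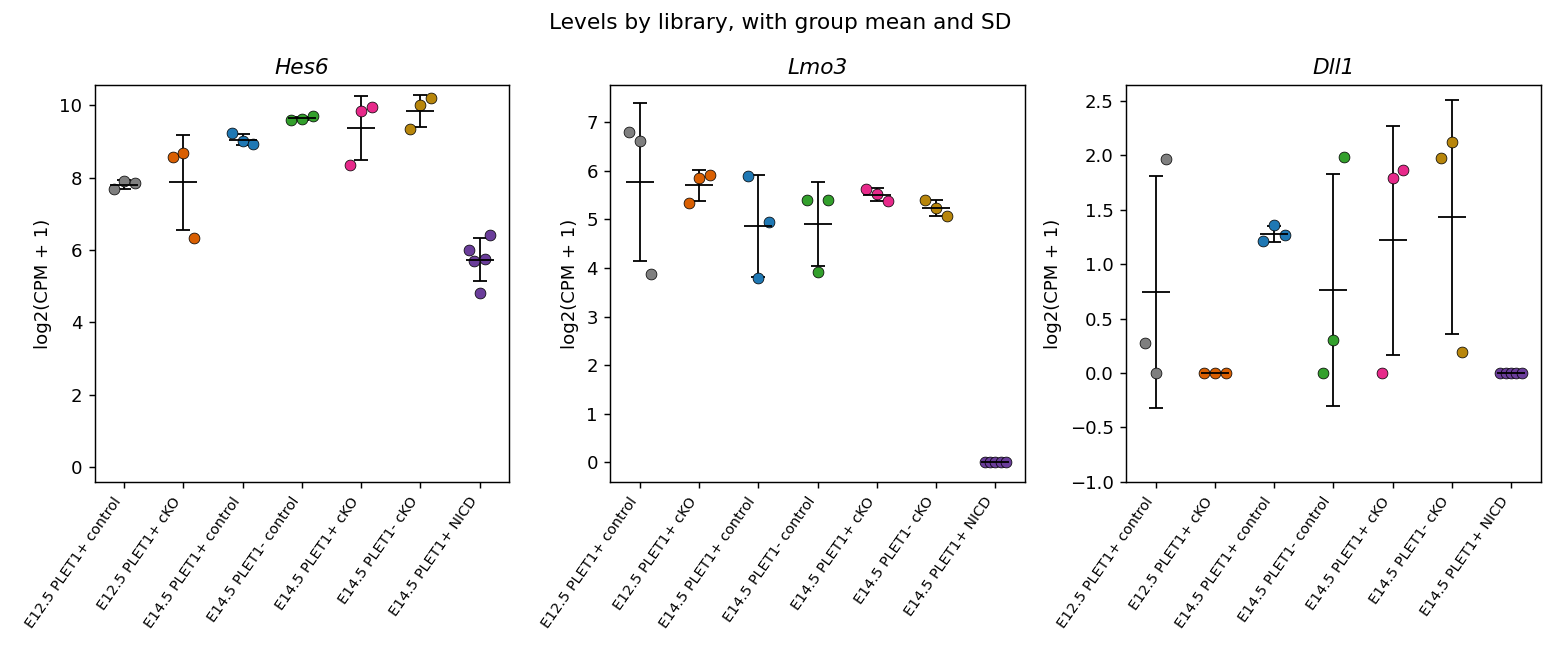
Levels of *Hes6*, *Lmo3* and *Dll1* as log2(CPM + 1) in each library (points), by group, with the group mean and SD (bars). All 5 NICD libraries lie at the bottom of the *Hes6* panel together with 1 E12.5 cKO library, at 0 in the *Dll1* panel and at or near 0 in the *Lmo3* panel.

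The NICD mean of *Hes6* was below that of every other group, E12.5 included. In the fit its log2 fold change was -3.26 (SE 0.40) against E14.5 PLET1+ controls and -2.09 (SE 0.40) against E12.5 controls. Between NICD and E14.5 PLET1+ control libraries *Hes6*, *Dll1* and *Lmo3* did not overlap, all 3 being lower in NICD, against 6.52% of all genes tested, and since this is the contrast that picked the genes nothing is read from the count. Markers of mesenchyme moved with the same contrast, while the ranges of the parathyroid, thyroid C-cell, neural, blood and endothelium marker lists overlapped. The summed level of 5 mesenchyme markers was 22.7 to 188 CPM in NICD libraries and 0.855 to 10.5 CPM in the controls, with none of the 5 at 0 in NICD and *Pdgfrb* at 0 in the controls, and the mitochondrial share of counts was 9.60% to 12.8% against 4.50% to 9.54%. The part of these in the *Hes6* level was not tested.

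No member was called between cKO and control cells in either sort that could be tested. *Rbpj* itself, the targeted gene, was at 15.1, 20.1 and 37.9 CPM in E12.5 controls and at 9.48, 16.2 and 2.09 CPM in the E12.5 cKO. At E14.5 it was at 9.50, 11.1 and 26.2 CPM in PLET1- controls and at 4.44, 3.42 and 8.29 CPM in the PLET1- cKO, and at 20.4, 20.2 and 18.4 CPM in PLET1+ controls against 0.0610, 10.4 and 6.95 CPM in the PLET1+ cKO. At E12.5 the cKO and control *Rbpj* ranges overlapped, so the deletion was only partly visible at the level of the transcript.

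At E12.5 the *Hes6* log2 difference, cKO minus control, was 0.09 (SE 0.48, adjusted p = 1 by edgeR's quasi-likelihood test), and no member was called where 0.0261% of all genes were. Its sign differed between batches, with a log2 difference of 0.84 between the 2 libraries of each genotype in batch 1 and of -1.50 between the single pair in batch 2. In E14.5 PLET1- cells it was 0.23 (SE 0.44, adjusted p = 1), with 0.06 in batch 3 and 0.49 in batch 4. The batch 3 value hides a spread: its cKO libraries, at 643 and 1018 CPM, lay on either side of the controls, at 774 and 776 CPM. In this comparison no gene at all was called (0%), 447 genes having an unadjusted p under 0.05. Limma-voom also called 0 genes, and DESeq2 called 160, none of them a member. The difference between these 2 effects of *Rbpj* loss, at E14.5 and at E12.5, was 0.14 (SE 0.65, adjusted p = 1), with 0% of genes called, 672 genes at an unadjusted p under 0.05 and no member called by DESeq2 or limma-voom. In E14.5 PLET1+ cells, which share their control libraries with the contrast that picked the genes, *Hes6* differed by 0.44 (SE 0.45). In each E14.5 sort *Hes6* was higher in the cKO for 2 of 3 replicate numbers, but across genotypes the deviations pair only replicate 1. For that replicate *Hes6* was lower in the cKO, at 324 against 599 CPM in PLET1+ and 643 against 774 CPM in PLET1- cells. No direction is read from these signs.

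The widest tested differences of *Hes6* were those between stages. E14.5 PLET1- controls, at 774 to 825 CPM, did not overlap E12.5 PLET1+ controls, at 203 to 239 CPM, and 11.3% of all genes were higher without overlap in the same comparison. The log2 difference was 1.74 (SE 0.47) beside a median of 0.13 over all genes, and by edgeR's quasi-likelihood test it missed the threshold (adjusted p = 0.0927), in a comparison that called 1.14% of genes. By limma-voom, the test of the study, it passed (log2 difference 1.83, adjusted p = 0.0150), as it did by DESeq2 (1.78, adjusted p = 0.00295). Without E12.5 control replicate 3 it passed by edgeR (2.60, adjusted p = 0.0131), but there the E12.5 batch term rests on 1 library, the cKO replicate 3. The control left out, at 229 CPM, lay between the other 2, so nothing further is read from that pass. In the PLET1+ sort of controls, a description because of the shared libraries, the difference was 1.18 (SE 0.46). Among cKO libraries, where the sort was the same at both stages, E14.5 PLET1+ minus E12.5 PLET1+ gave 1.52 (SE 0.46, adjusted p = 0.184 by edgeR), where 0.784% of genes were called, and 324 CPM in the lowest E14.5 library lay within the E12.5 range. DESeq2 called it (1.56, adjusted p = 0.0162) and limma-voom did not. The 2 sorts of E14.5 cKO cells did not differ by a called amount (PLET1+ minus PLET1-, -0.36, SE 0.44, adjusted p = 1, with 0% of genes called, 442 at an unadjusted p under 0.05, and 2 called by limma-voom and 152 by DESeq2, none a member). *Hes6* was lower in PLET1+ cells in 3 of 3 same-numbered cKO pairs, but the ranges of the sorts overlapped (324 to 986 and 643 to 1161 CPM). The share of all genes with 3 pairs of the same sign was not computed. With the replicate block the difference was -0.39 (adjusted p = 1 by edgeR). In the controls, a description, it was lower in PLET1+ cells in 3 of 3 pairs as well.

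These comparisons share groups with one another, and the sorted cells differed in more than stage. The summed level of 5 parathyroid markers was 1362 to 8970 CPM in E12.5 controls and 12.7 to 1510 CPM in E14.5 PLET1- controls, with *Tbx1* at 0 in both groups, and it was 700 to 1516 CPM in the E12.5 cKO against 6.65 to 27.1 CPM in the E14.5 PLET1+ cKO. The mitochondrial share was 9.30% to 14.001% in E12.5 controls and 4.29% to 7.80% in PLET1- controls, and the summed TEC markers were at 3776 to 4868 CPM and 9329 to 10909 CPM. The 5 mesenchyme markers summed to 8.03 to 66.5 CPM and 5.08 to 752 CPM in these groups. The part of these in the stage difference of *Hes6* was not tested.

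The genes whose levels followed *Hes6* most closely over the 18 libraries without the NICD transgene, among 13455 candidates, were *Dll4* (Pearson r = 0.953), *Castor1*, an arginine sensor (r = 0.949), and *Psmb11*, a proteasome subunit particular to cTECs (r = 0.946). The libraries fall into 6 groups and 2 stages, and the points share stage and sort. After each group's mean was subtracted, r was 0.912 for *Dll4*, 0.915 for *Castor1* and 0.878 for *Psmb11*. These values lean on 2 libraries, the E12.5 cKO replicate 3 and the E14.5 PLET1+ cKO replicate 1, which had the lowest TMM factors (0.776 and 0.754) and, among the 18, the lowest mean correlation with their own group (0.836 and 0.839). Without them, the value within groups was 0.721 for *Dll4*, 0.562 for *Castor1* and 0.219 for *Psmb11*, over 16 libraries.

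In the E12.5 cKO replicate 3, *Dll4* was at 0.226 CPM beside 6.29 and 6.68 CPM in its group, and *Psmb11* at 36.7 CPM beside 123 and 239 CPM. In the E14.5 PLET1+ cKO replicate 1, *Dll4* was at 6.41 CPM beside 31.1 and 35.1 CPM, *Psmb11* at 377 CPM beside 889 and 857 CPM. *Foxn1* was at 12.6 CPM beside 142 and 121 CPM in this library but at 39.8 CPM beside 33.3 and 59.6 CPM in the E12.5 cKO replicate 3. With *Hes6*, *Foxn1* had r = 0.711 over 18 libraries and 0.517 within groups. Without the 2 libraries these were 0.790 and 0.435. The study calls *Dll4* a direct FOXN1 target and cites earlier work that placed *Hes6* among such targets. The part of *Foxn1* in the *Hes6* level was not tested. The E12.5 cKO replicate 3 and the E14.5 PLET1+ cKO replicate 1 also had the least *Rbpj* of their groups. They had the fewest detected genes of all libraries as well (16279 and 16229), and the former had the highest mitochondrial share (14.6%). The part of library quality in their values was not tested. The Notch ligand gene *Jag1*, chosen after its values were seen, ran opposite to *Hes6* (r = -0.931 over 18 libraries and -0.900 without the 2, and within groups -0.815 and -0.464), with 2764 CPM in the E12.5 cKO replicate 3 and 52.2 to 180 CPM in the PLET1- cKO. *Rbpj* followed *Hes6* within groups (r = 0.822) but not over the 18 libraries (r = 0.083). Both values lean on the same 2 libraries. Without them r was -0.581 over 16 libraries and 0.338 within groups.

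NICD libraries did not lie on the same line. Their *Psmb11*, 99.8 to 215 CPM, fell within the range of the 6 E12.5 libraries, 36.7 to 239 CPM, but 4 of the 5 had less *Hes6* than any of those libraries. With the NICD libraries added, r was 0.872 for *Dll4* and 0.777 for *Psmb11* over 23 libraries.

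**Figure D3:**
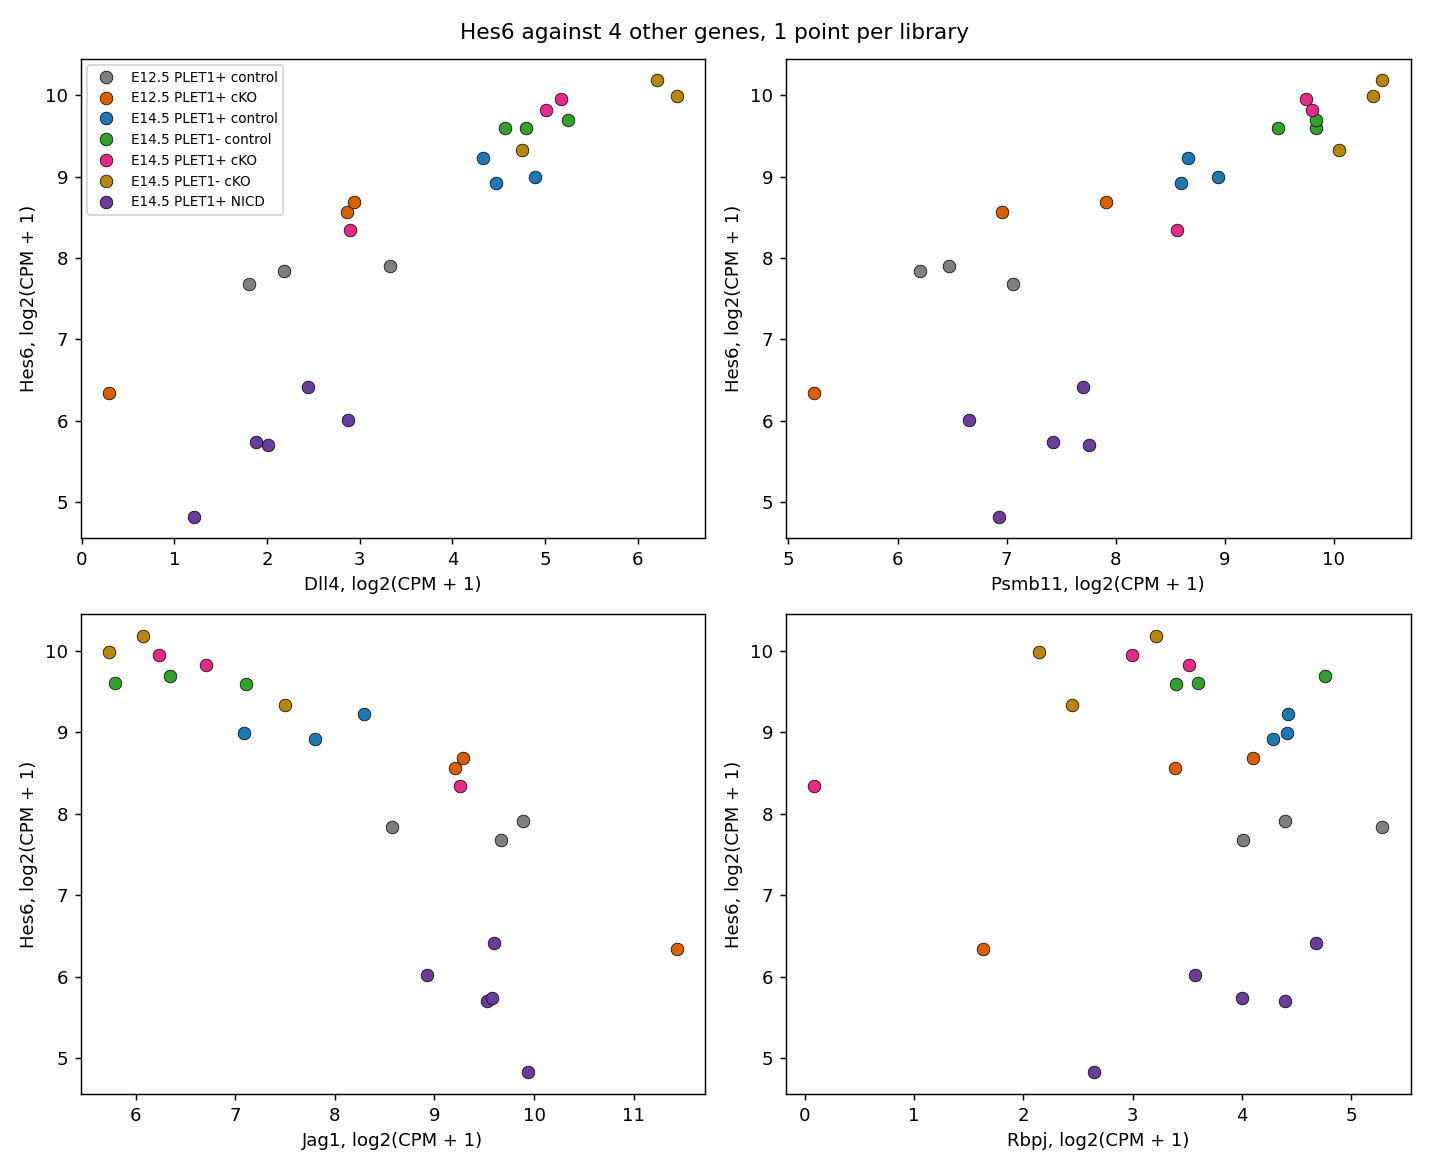
*Hes6* (vertical axis) against *Dll4*, *Psmb11*, *Jag1* and *Rbpj* (horizontal axes), all as log2(CPM + 1), with 1 point per library colored by group. *Hes6* rises with *Dll4* and *Psmb11* and falls with *Jag1* across the *Rbpj* cross (r = 0.953, 0.946 and -0.931 over 18 libraries). With *Rbpj*, r is 0.083 over 18 libraries and -0.581 without the E12.5 cKO replicate 3 and the E14.5 PLET1+ cKO replicate 1.

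Of the ligands, *Dll1* (ENSMUSG00000014773.13, chr17:15367354-15376872, minus strand) activates Notch on neighboring cells. It was counted in 12 libraries and at no more than 3.35 CPM. E12.5 controls had 5, 0 and 156 reads and the E12.5 cKO had none in 3 libraries. E14.5 PLET1+ controls had 36, 86 and 59 reads, PLET1- controls 0, 7 and 155, the PLET1+ cKO 0, 100 and 111 and the PLET1- cKO 139, 142 and 4. None of the 5 NICD libraries, each of 63587152 counts or more, had a *Dll1* read. Each group of the *Rbpj* cross other than the E14.5 PLET1+ controls mixed libraries at or near 0 with libraries of 100 reads or more, or had no reads at all.

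Against a floor of 3 counts in each NICD library, a bound for counting error only, *Dll1* was at least 24.6-fold lower in NICD than in E12.5 controls, at least 33.8-fold lower than in E14.5 PLET1+ controls and at least 50.9-fold lower than in the E14.5 PLET1- cKO. The first of these bounds rests on E12.5 control replicate 3, and without that library it was 2.47-fold. No fold was computed against the E12.5 cKO, whose libraries were at 0 as well. The fitted *Dll1* difference in E14.5 PLET1- cells was 2.06 (SE 2.99, adjusted p = 1 by edgeR), and *Dll1* passed in none of the 6 tested comparisons. Its exons overlap those of *A930024N18Rik*. Reads were counted without regard to strand, so reads inside the overlap cannot be assigned by strand to either gene. Over the 18 libraries *Dll1* followed *Cep19* (r = 0.809), *Ndrg2* (0.798) and *Hfe* (0.787) most closely, and *Hes6* hardly (r = 0.431, and 0.199 within groups).

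*Dll3* (ENSMUSG00000003436.11, chr7:28293553-28302238, minus strand) encodes a divergent Delta protein that does not activate Notch on neighboring cells. It reached 100 reads in the E12.5 control replicate 3, 29 in the E12.5 cKO replicate 1, 26 in the E14.5 PLET1+ control replicate 2 and 18 in the PLET1+ cKO replicate 2. Apart from 2 reads in an E12.5 control and 1 in an NICD library it was at 0, including all 6 PLET1- libraries. The 4 positive libraries came from 4 groups, so no group stood apart, and no tested comparison called it.

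*Insm1* (ENSMUSG00000068154.5, chr2:146221921-146225020, plus strand) encodes a zinc-finger factor of endocrine and neuroendocrine differentiation. Its reads were 34, 147 and 0 in E14.5 PLET1+ controls, 37 in the PLET1- control replicate 2, 25 in the PLET1+ cKO replicate 2 and 2 in the NICD replicate 5, and it was at 0 in every other library, including all 6 of E12.5. The 4 libraries with more than 3 reads thus all belonged to batch 3. *Neurod1* (ENSMUSG00000034701.9, chr2:79452521-79456751, minus strand), a proneural bHLH gene downstream of *Neurog3* in endocrine cells, had 15 reads in the E12.5 control replicate 2 and 1 in the E14.5 PLET1+ cKO replicate 1, and its exons overlap those of *Cerkl* and *Gm26755*. *Chgb* (ENSMUSG00000027350.8, chr2:132781278-132795079, plus strand), which encodes chromogranin B of secretory granules, had no read in 23 libraries of 20053241 to 92699969 counts. At 3 counts the limit of these libraries was 0.0324 to 0.150 CPM, before TMM scaling.

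For the genes with reads in few libraries the closest followers were set by those libraries: *Foxa1* (r = 0.875), *Fbp2* and *Smoc2* for *Dll3*, *Cdhr1* (0.811), *Krt16* and *Ptprq* for *Insm1*, and *Trhde* (0.974), *Prr16* and *Mdm2* for *Neurod1*. The 7 genes did not move as a set. Among the 15 pairs of members with reads, r over the 18 libraries ran from -0.478 for *Insm1* and *Lmo3* to 0.431 for *Hes6* and *Dll1*.

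*Lmo3* (ENSMUSG00000030226.12, chr6:138362918-138581968, minus strand) encodes a LIM-only protein that bridges transcription factors and is known from neurons and neuroblastoma. It was present in every library of the *Rbpj* cross and all but missing in NICD cells. It measured 110, 96.1 and 13.8 CPM in E12.5 controls and 39.1, 56.6 and 59.2 CPM in the E12.5 cKO. At E14.5 it was at 58.0, 12.8 and 29.6 CPM in PLET1+ controls, 41.2, 14.02 and 41.3 CPM in PLET1- controls, 48.4, 45.0 and 40.3 CPM in the PLET1+ cKO and 41.2, 36.8 and 32.7 CPM in the PLET1- cKO. The cKO libraries lay close to one another at E14.5, while each control group held 1 library under 15 CPM.

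In the NICD libraries *Lmo3* had 0, 0, 0, 0 and 1 read, against 416 to 5878 reads in the 18 others. With reads pooled within each group, the E14.5 PLET1+ control level was 10183 times the NICD level, with an exact 95% interval from 1826 to 402315 that covers counting error alone and not the spread between embryos. The smallest such ratio among the 6 groups was this one. Since the 5 NICD embryos are littermates that share a batch and a laboratory, the part of the transgene cannot be told apart from theirs. Neither *Lmo4*, its relative, nor the 8 TEC markers, which summed to 5010 to 7426 CPM there, dropped out in this way. *Lmo4* was at 74.9, 63.3, 47.7, 23.9 and 46.3 CPM in NICD libraries and at 55.5 to 102 CPM in the others.

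Among the groups of the *Rbpj* cross, ordered by mean *Lmo3* from 73.4 ± 52.2 CPM in E12.5 controls to 32.2 ± 15.7 CPM in PLET1- controls (SD, n = 3), each overlapped the next. The log2 difference of cKO and control was -0.14 (SE 0.72) at E12.5 and 0.19 (SE 0.65) in E14.5 PLET1- cells, both with an adjusted p of 1 by edgeR. At E12.5 it had opposite signs in the 2 batches, -1.11 and 2.03. For stage it was -0.95 (SE 0.67, adjusted p = 0.564) in controls and -0.34 (SE 0.66, adjusted p = 0.933) in cKO cells, and between E14.5 sorts of the cKO it was 0.27 (SE 0.64, adjusted p = 1). Its closest followers over 18 libraries were *Slc9a2*, a sodium-proton exchanger (r = 0.849, and 0.908 within groups), *Eldr* (0.778) and *Anp32b* (0.770).

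In the wider pathway, the lists of which were set with earlier results of these data known, called genes were few. Of 13 *Hes*, *Hey* and *Id* genes, 10 were tested. Over all genes 0.23% were called lower in the stage comparison of cKO cells and 0.214% in that of controls. In E14.5 PLET1+ minus E12.5 PLET1+ cKO cells 0 rose and 2 fell, *Hes1*, the classical Notch-induced repressor (log2 difference -2.21, SE 0.40, adjusted p = 0.00988), and *Id2*, an inhibitor of bHLH dimers (-2.03, SE 0.42, adjusted p = 0.0283). In E14.5 PLET1- minus E12.5 PLET1+ controls 0 rose and 2 fell, *Id2* (-2.20, SE 0.42, adjusted p = 0.0114) and *Id1* (-2.96, SE 0.67, adjusted p = 0.0385). Among list genes with reads in both groups the median log2 difference was -1.83 (former, 9 genes) and -1.31 (latter, 10 genes). Over all 10 tested genes it was -1.44 and -1.31, beside 0.18 and 0.13 over all genes, which were not restricted by reads either. *Hes6*, a member of this list, had the opposite sign in both.

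*Hes1* was at 97.8, 70.4 and 232 CPM in E12.5 controls and 124, 146 and 146 CPM in the E12.5 cKO. At E14.5 it was at 39.9, 33.3 and 49.6 CPM in PLET1+ controls, 46.2, 51.4 and 62.5 CPM in PLET1- controls, 12.8, 33.2 and 51.1 CPM in the PLET1+ cKO and 27.3, 32.9 and 28.0 CPM in the PLET1- cKO. In NICD cells it was at 108 to 214 CPM. The PLET1- cKO libraries all lay under the PLET1- controls, as they did for 3.2% of all genes tested. The *Hes1* difference was not called (-0.83, SE 0.38, adjusted p = 1).

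None of the 14 tested genes among 16 ligands and modifiers, the 5 tested among 13 proneural bHLH genes or the 4 tested among 6 LIM-only genes was called in any of the 6 tested comparisons. *Dll4*, the ligand of cTECs, was at 2.50, 9.06 and 3.54 CPM in E12.5 controls, 19.2, 28.7 and 21.2 CPM in E14.5 PLET1+ controls and 22.8, 26.8 and 36.9 CPM in PLET1- controls, with 1.31 to 6.33 CPM in NICD cells. Its log2 difference between PLET1- and E12.5 controls was 2.36 (SE 0.87, adjusted p = 0.275).

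Of 23 neuroendocrine genes, 13 were tested and *Stmn2*, a tubulin-binding protein of neurons, was the one called. It fell in both stage comparisons, in which 0.23% and 0.214% of all genes were called lower, with a log2 difference of -1.46 (SE 0.27, adjusted p = 0.0133) in cKO cells and of -1.41 (SE 0.27, adjusted p = 0.0130) in controls. Among list genes with reads in both groups the median was -1.60 (8 genes) and -0.49 (9 genes) in these comparisons. Over all 13 tested genes it was 0.12 and 0.18, beside 0.18 and 0.13 over all genes, which were not restricted by reads either. No fall of the list as a whole is therefore read from these medians. *Chga*, the other chromogranin, was at 112, 70.5 and 291 CPM in E12.5 controls and 84.7, 75.8 and 80.8 CPM in the E12.5 cKO. At E14.5 it was under 1 CPM in 7 of the 12 libraries of the *Rbpj* cross and had no read in the NICD libraries. The chromogranin found in these sorts was *Chga* and not *Chgb*.

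Libraries had 20053241 to 92699969 counts, 16229 to 20350 detected genes and a mitochondrial share of 4.21% to 14.6%. The NICD libraries, with at least 63587152 counts, were deeper than 17 of the 18 others, and so their zeros at *Dll1* rest on more reads than most zeros of the *Rbpj* cross. The sources used here do not tie the libraries of the *Rbpj* cross to single embryos, so the p-values measure only the spread between these libraries, which may be technical in part.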

How the data were processed

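Bulk RNA-seq by Smart-seq2 was available for 23 libraries of 100 sorted cells each, sequenced as 75 bp read pairs. The authors trimmed reads with Trimmomatic (0.32), aligned them with STAR (2.5.1a) and deposited raw counts per gene, which featureCounts (1.5.0-p3 in the file header, 1.5.1 in the submitters' processing notes) made from fragments with both ends aligned, against GENCODE M12 on GRCm38, with no strand option. Without molecular identifiers, amplified copies of the same molecule are counted separately, so intervals and floors cover counting error only.

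Here gene identifiers were matched to symbols (98.4% of 50123 genes), and genes were kept by edgeR's filterByExpr. The 19140 genes were fitted in edgeR (4.0.16, R 4.3.3) with TMM factors, 7 group means and centered batch terms within each stage of the *Rbpj* cross, and tested by the two-sided quasi-likelihood test with Benjamini-Hochberg adjustment at 0.05. The study's own test, limma-voom (limma 3.58.1), and DESeq2 (1.42.0), other scalings (RLE factors, housekeeping genes, library totals), no low-count filter, no batch terms, a replicate block, fits of only the groups compared and fits without each library were alternatives. The code was tested on simulated counts. CPM were scaled by the TMM factors, and correlations and differences within a batch used log2(CPM + 1).

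The members and the gene lists were chosen with earlier results of these data known. The text names the 7 members, the label check *Rbpj*, list genes called in a tested comparison (at most 3 per list and direction), *Hes1*, *Dll4*, *Chga* and *Lmo4* in every case, and for each member the 3 genes of highest Pearson r over the 18 libraries without NICD among tested genes with a mean of at least 1 CPM there. *Jag1*, *Foxn1*, *Psmb11* beyond its likeness and *Pth* were named after their values were seen. Some genes that the rule would name are not reported here. Comparisons that use NICD or E14.5 PLET1+ control libraries were not tested for the members. Within the E14.5 *Rbpj* cross same-numbered libraries deviated together (r from 0.260 to 0.556 in every pair). Between the sorts of a genotype, different-numbered libraries were less close (r at most 0.376 in the cKO and 0.171 in controls). The numbers thus pair the sorts. Between genotypes, different-numbered replicates 2 and 3 reached r of 0.336 and 0.339, so the deviations pair only replicate 1 there. Replicates 1 and 2 share a batch label but deviated in opposite directions (r of -0.327 and -0.463 between PLET1- genotypes). The batch term does not cover that split. E14.5 replicate 1 libraries of the *Rbpj* cross had 7.80% to 9.54% mitochondrial counts, against 4.21% to 5.36% in replicates 2 and 3. At E12.5 same-numbered libraries did not deviate together (-0.093 to 0.046). Upstream windows are from RefSeq on GRCm38.p6, and 6 of the 7 members had at least 1.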

Additional observations from a re-analysis of the deposited data

Results flagged for a closer look

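In the NICD group 3 members had 1 library apart from 4 libraries at 0. *Lmo3* was at 0.0126 CPM in replicate 5, which is 1 read. *Insm1* was at 0.0252 CPM in the same library, which is 2 reads. *Dll3* was at 0.0137 CPM in replicate 4, again 1 read. All 3 values lie under the 3-count floor of their library, and any lone read in a group of zeros is picked out by the rule used, Dixon's test at its 95% critical value, which a share of groups exceeds by chance.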

How the results depend on the processing

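Against E14.5 PLET1+ controls *Hes6* stayed between -3.46 and -2.98 on the log2 scale in NICD cells under all 13 alternatives. The number of all genes called depended on the test far more than any member did. In the order E12.5 cKO minus control, PLET1- cKO minus control, PLET1+ minus PLET1- cKO, E14.5 PLET1+ minus E12.5 cKO, E14.5 PLET1- minus E12.5 control and the difference of *Rbpj* effects, edgeR called 5, 0, 0, 150, 218 and 0 genes, DESeq2 318, 160, 152, 1099, 1355 and 227, and edgeR without the low-count filter 52, 15, 23, 393, 564 and 31. Limma-voom called 0 genes in the E12.5 comparison, 2 between cKO sorts and 443 between stages of controls. Housekeeping scaling gave 0 at E12.5 and 79 between cKO stages, no batch terms 0 and 95, and fits of only the groups compared 0, 35 and, between control stages, 55. With the replicate block the counts were 2 at E12.5, 253 between cKO stages and 402 between control stages, and no call of a member changed; since E12.5 libraries and those of different stages share only a number, these counts are not paired results. *Hes6* was the 1 member called between control stages by DESeq2, by limma-voom, without the filter (1.77, adjusted p = 0.000253) and without the 2 libraries apart (1.82, adjusted p = 0.0044), and between cKO stages by DESeq2 and without the filter (adjusted p = 0.00284). The causes were not tested. Leaving out each library in turn gave 0 to 1 member and 110 to 188 genes called between control stages, the member being *Hes6* without E12.5 control replicate 3 (2.60, adjusted p = 0.0131), where the E12.5 batch term rests on 1 library of the second batch. It gave 59 to 121 genes between cKO stages, 0 to 6 at E12.5 and 0 to 4 for the difference of effects. Without both libraries apart, chosen after seeing the data, these were 360 between control stages, 51 between cKO stages and 3 for the difference of effects.

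Signs of uncalled differences were unstable. *Dll3* at E12.5 was -0.28 by limma-voom, -0.96 without batch terms and -0.88 with the replicate block. *Hes6* at E12.5 was -0.28 under housekeeping scaling, and its difference of effects was -0.11 by limma-voom, -0.13 without batch terms and -0.58 without the 2 libraries, where *Hes6* between cKO sorts was 0.0104. *Lmo3* between cKO stages was 0.27 by limma-voom and 0.83 without the 2 libraries, and *Dll1* between cKO sorts was 0.0275 in a fit of those groups. Leaving out a library moved *Hes6* from -0.28 to 0.82 at E12.5, from -0.67 to 0.0104 between cKO sorts and from -0.59 to 0.51 for the difference of effects. It moved *Lmo3* from -1.12 to 0.48 at E12.5, from -0.20 to 0.49 in PLET1- cells, from -0.85 to 0.90 between cKO stages and from -0.29 to 1.32 for the difference of effects. *Dll3* ran from -7.74 to 3.56 at E12.5 and from -7.72 to 6.52 between cKO stages, and *Dll1* from -1.58 to 3.64 between control stages. None of these reversed values was called. Depth did not limit *Hes6*, but *Dll1*, *Dll3*, *Insm1* and *Neurod1* had few reads in few libraries of 100 cells, and no difference of theirs could be estimated closely.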

Other observations

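*Chga* did not follow *Hes6* over the 18 libraries without NICD (r = -0.405, and 0.138 within groups). It followed *Pth*, the parathyroid hormone gene, with r = 0.981 over the same libraries and 0.961 within groups. This is a description over libraries that share stage and sort. *Pth* was at 1216, 1492 and 8674 CPM in E12.5 controls, with the highest *Chga* of the series, 291 CPM, in the same replicate 3. In the 3 E14.5 PLET1- controls *Pth* was at 1432, 864 and 1.06 CPM and *Chga* at 111, 34.0 and 0.133 CPM. *Hes6* in those 3 libraries was at 774, 776 and 825 CPM, so libraries far apart in *Chga* and *Pth* lay close together in *Hes6*.

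The E12.5 control replicate 3 held the most *Dll3* reads (100) and *Dll1* reads (156) of the 23 libraries, together with the lowest *Lmo3* of the E12.5 libraries (13.8 CPM), while its *Hes6*, 229 CPM, lay between those of the other 2 controls.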
